A study of Mus musculus with 11 samples.

Results

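The contractile and pericyte genes compared here are Acta2, Tagln, Myh11, Cnn1 and Des, and Rgs5, Cspg4, Mcam, Abcc9 and Kcnj8. These 10 genes, out of 18193 genes with a probe set that names 1 gene only, were chosen by symbol from the array annotation, each read by its brightest probe set (the highest mean of the 11 arrays). RNA was hybridised to 11 Affymetrix mouse expression arrays. The deposited values are log2 signals, so that a difference of 1 is a doubling.

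Mx1+Ocn- P-SSCs (periosteal skeletal stem cells; 2 arrays) were CD45-CD31-Ter119-CD105+CD140a+ cells of periosteum from mice carrying Mx1-Cre, a Rosa-Tomato reporter and Osteocalcin-GFP. Mx1+Nes+ BM-SSCs (bone marrow skeletal stem cells; 2 arrays) passed the same surface gate in marrow of mice with Mx1-Cre, Rosa-Tomato and Nestin-GFP. Nes+ BMSCs (1 array) passed it too and were taken for Nestin-GFP whether or not they were Mx1+; their title names marrow but their source field names periosteum. CD51+ BMSCs (2 arrays) were CD45-CD31-Ter119- CD51+ marrow cells by their titles, whereas the paper states that they were also selected as CD105+CD140a+. Osx+ cells (2 arrays) were CD45-CD31-Ter119- and positive for Osterix-GFP with periosteum as source, and CD45+ cells (2 arrays) were blood cells of marrow. The mice of both SSC populations were irradiated with 9.5 Gy at 4 weeks of age, received wild-type C57BL/6 marrow, and 6 to 8 weeks later were given pIpC at 25 mg/kg every other day for 10 days to switch on Mx1-Cre, which acts in interferon-responsive cells, blood cells included. Whether the other mice were treated in this way is not given in the sources used here. Cells of 2 or 3 male and female mice were pooled, no culture step followed, and the arrays of a population are called biological repeats, without saying whether they came from different mice. The p-values then cover only how far these samples differ, which may be technical in part.

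Pericytes and smooth muscle cells are the mural cells that wrap small vessels and larger vessels, respectively. Smooth muscle cells are known for a contractile apparatus of smooth muscle actin, myosin heavy chain, calponin and transgelin, which serum response factor and its myocardin family cofactors switch on through CArG boxes. Pericytes are known by surface proteins such as NG2 and CD146, by the G-protein regulator RGS5 and by an ATP-sensitive potassium channel, and marrow stromal cells around vessels share several of these genes, so that none of them marks a mural cell alone. In bulk RNA, fewer cells of a type and less RNA per cell cannot be told apart.

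All 10 genes were located in the RefSeq mouse genes of GRCm38.p6. Tagln, Cnn1, Cspg4 and Mcam lie on chromosome 9, Des and Rgs5 on chromosome 1, Acta2 on chromosome 19 and Myh11 on chromosome 16. Kcnj8 (chr6:142564837-142571614) and Abcc9 (chr6:142587862-142702766) encode the pore and the regulatory subunit of one potassium channel and are neighbours with 16247 bases between them. RefSeq promoter windows of 300 bases, from 250 before to 50 after the start, were at hand for 8 of the 10 genes, and those of Acta2, Rgs5, Abcc9 and Kcnj8 are shown because Abcc9 and Kcnj8 encode partners, Rgs5 followed Abcc9 most closely among the members and Acta2 is the best known smooth muscle gene. They are chr19:34255324-34255623 on the minus strand for Acta2, chr1:169655251-169655550 on the plus strand for Rgs5, chr6:142702225-142702524 on the minus strand for Abcc9 and chr6:142571565-142571864 on the minus strand for Kcnj8, written 5′ to 3′ along the gene. Capitals mark E-boxes (CANNTG), MCAT elements (CATTCC or its complement GGAATG) and, in Acta2, CArG-like boxes (CC, 6 bases of which at least 5 are A or T, then GG).
Acta2: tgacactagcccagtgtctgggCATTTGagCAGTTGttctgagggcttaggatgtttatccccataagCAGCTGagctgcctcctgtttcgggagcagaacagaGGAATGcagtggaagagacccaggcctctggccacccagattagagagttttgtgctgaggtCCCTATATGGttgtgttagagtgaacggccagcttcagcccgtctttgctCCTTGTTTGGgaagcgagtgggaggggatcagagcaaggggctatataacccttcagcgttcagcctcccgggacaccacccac
Rgs5: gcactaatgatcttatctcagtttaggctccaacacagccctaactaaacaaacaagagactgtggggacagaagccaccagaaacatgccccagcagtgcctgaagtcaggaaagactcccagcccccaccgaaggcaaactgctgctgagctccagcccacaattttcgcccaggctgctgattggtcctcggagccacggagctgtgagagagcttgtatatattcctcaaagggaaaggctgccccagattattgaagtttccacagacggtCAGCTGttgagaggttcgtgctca
Abcc9: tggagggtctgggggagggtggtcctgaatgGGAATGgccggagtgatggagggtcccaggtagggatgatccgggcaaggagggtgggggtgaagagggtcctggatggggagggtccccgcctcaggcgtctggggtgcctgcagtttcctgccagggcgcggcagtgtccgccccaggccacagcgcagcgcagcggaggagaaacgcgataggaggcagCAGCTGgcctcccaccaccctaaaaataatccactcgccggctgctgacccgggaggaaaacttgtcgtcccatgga
Kcnj8: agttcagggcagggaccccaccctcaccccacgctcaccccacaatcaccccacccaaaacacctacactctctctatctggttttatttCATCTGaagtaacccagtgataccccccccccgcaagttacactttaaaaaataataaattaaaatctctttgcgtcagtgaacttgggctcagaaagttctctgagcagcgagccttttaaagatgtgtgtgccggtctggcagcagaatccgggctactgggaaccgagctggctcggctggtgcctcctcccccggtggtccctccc
A full CArG box, with A or T at all 6 inner bases, was in none of the 8 windows and in 1.63% of all 32851 windows. The looser form, chosen after the sequences had been seen, was found in Acta2 only among the 8, as CCCTATATGG at bases 167 to 176 and CCTTGTTTGG at bases 217 to 226 of its window, and in 9.98% of all windows. MCAT elements were in Acta2 and Abcc9 (14.7% of all windows), E-boxes in every one of the 8 except Cspg4 (72.3%), and the TATA sequence TATAAA in none (13.6%), all read on both strands. A match describes letters of these windows and is not evidence of binding. The windows of Acta2 and Abcc9 were placed at a start inside the RefSeq gene span, not at its outer end. The Abcc9 window lies wholly within its span, chr6:142587862-142702766, and the Acta2 span is chr19:34240336-34255585.

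The second P-SSC array and, less so, the second BM-SSC array stood apart. Across probe sets the P-SSC arrays correlated with each other at 0.456, the BM-SSC arrays at 0.771 and the other pairs at 0.985 to 0.995. The 3′ beta-actin control read 7.81 on P-SSC array 2 against 12.78 to 14.25 elsewhere, and 13 ribosomal protein genes averaged 6.34 there against 10.75 to 12.23 elsewhere. Of the positive surface markers of the SSC gate, Pdgfra (CD140a) read 11.28 and 4.41 in the P-SSCs and 10.95 and 6.90 in the BM-SSCs. It read 3.62 and 3.42 in CD45+ cells. Eng (CD105) fell less, with 8.32 and 7.59 in the P-SSCs, 7.63 and 7.57 in the BM-SSCs and 6.27 and 5.97 in CD45+ cells. The spread of a probe set was estimated once over all populations, so the second SSC arrays also widen the errors of comparisons they are not in. Results are therefore given with all arrays and without array 2 of both SSC populations, where each SSC population is a single array that is assumed to vary like the others.

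Among the contractile genes, the population means of Acta2 and Tagln spanned 3.07 and 3.65 log2 units and those of Myh11, Cnn1 and Des 2.08, 1.18 and 1.23. Acta2, smooth muscle alpha-actin, read 9.91 and 6.36 in the P-SSCs, 8.90 and 8.93 in the BM-SSCs, 10.44 in the Nes+ BMSCs, 9.05 and 9.04 in the CD51+ BMSCs, 10.16 and 9.65 in the Osx+ cells, and 7.42 and 7.30 in the CD45+ cells. P-SSC array 2 had the lowest log2 signal of all, below the CD45+ arrays, and every other stromal array was above them. By rank within the array the order differed. Acta2 stood at the 85.4th percentile of probe sets on P-SSC array 2 and at the 82.4th and 80.8th on the CD45+ arrays. Tagln, the actin-binding protein transgelin, read 7.77 and 5.85 in the P-SSCs, 6.89 and 7.29 in the BM-SSCs, 8.0 in the Nes+ BMSCs, 6.80 and 6.92 in the CD51+ BMSCs, 7.87 and 7.67 in the Osx+ cells, and 4.43 and 4.27 in the CD45+ cells. No stromal array overlapped the CD45+ arrays for Tagln. Nes+ BMSCs and Osx+ cells had the highest means for both genes.

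Myh11, the smooth muscle myosin heavy chain, read 5.31 and 7.64 in the P-SSCs, 5.30 and 6.76 in the BM-SSCs, 5.63 in the Nes+ BMSCs, 4.70 and 4.54 in the CD51+ BMSCs, 4.94 and 4.63 in the Osx+ cells, and 4.51 and 4.28 in the CD45+ cells. Cnn1, smooth muscle calponin, read 3.34 and 4.34 in the P-SSCs, 2.57 and 3.71 in the BM-SSCs, 3.18 in the Nes+ BMSCs, 3.12 and 2.71 in the CD51+ BMSCs, 2.92 and 3.19 in the Osx+ cells, and 2.68 and 2.64 in the CD45+ cells. Its signal stood between the 9.38th and the 32.5th percentile of probe sets on every array, so that no array read Cnn1 above its own median, although the brightness of a probe set also depends on its sequence. Des, the muscle intermediate filament desmin, read 5.61 and 7.05 in the P-SSCs, 5.69 and 6.60 in the BM-SSCs, 6.18 in the Nes+ BMSCs, 6.45 and 6.75 in the CD51+ BMSCs, 5.88 on both Osx+ arrays, and 5.51 and 5.24 in the CD45+ cells. For these 3 genes the second array of each SSC population read above the first, by 0.91 to 2.34 log2 units, whereas Acta2 and Tagln on P-SSC array 2 read lower than on array 1 by 3.55 and 1.92. Across all probe sets the lower quartile rose too, from 3.41 to 4.04 in P-SSCs and from 3.26 to 3.86 in BM-SSCs. How much of the rise of the 3 genes belongs to this array-wide shift was not tested. By these probe sets the highest values of Myh11, Cnn1 and Des are those of P-SSC array 2. The other Myh11 probe set differed: it read 4.81 on P-SSC array 1 and 3.82 on array 2, and was highest in the Nes+ BMSCs at 5.64.

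Among the pericyte genes, population means spanned 7.59 log2 units for Cspg4, 6.92 for Rgs5, 4.59 for Abcc9, 2.39 for Kcnj8 and 1.38 for Mcam. Rgs5, which shortens G-protein signals in mural cells, read 9.64 and 4.80 in the P-SSCs, 9.02 and 8.62 in the BM-SSCs, 9.04 in the Nes+ BMSCs, 9.54 and 9.57 in the CD51+ BMSCs, 6.85 and 4.62 in the Osx+ cells, and 2.50 and 2.77 in the CD45+ cells. Apart from P-SSC array 2, the SSC, Nes+ and CD51+ arrays lay between 8.62 and 9.64, and the Osx+ arrays lay between them and the CD45+ arrays and differed by 2.23. Abcc9, the regulatory subunit SUR2 of the potassium channel, read 6.68 and 4.77 in the P-SSCs, 8.30 and 5.80 in the BM-SSCs, 5.78 in the Nes+ BMSCs, 7.82 and 7.95 in the CD51+ BMSCs, 4.94 and 4.85 in the Osx+ cells, and 3.33 and 3.27 in the CD45+ cells. Kcnj8, the pore subunit Kir6.1 of that channel, read 5.26 and 4.79 in the P-SSCs, 4.67 and 4.54 in the BM-SSCs, 5.23 in the Nes+ BMSCs, 6.44 and 6.60 in the CD51+ BMSCs, 4.17 and 4.08 in the Osx+ cells, and 4.51 and 4.40 in the CD45+ cells. Only the CD51+ arrays stood clear of the rest for Kcnj8, and both Osx+ arrays lay below both CD45+ arrays.

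Cspg4, the proteoglycan NG2, had an order of its own. It read 8.62 and 6.28 in the P-SSCs, 9.70 and 6.46 in the BM-SSCs, 8.90 in the Nes+ BMSCs, 8.62 and 8.54 in the CD51+ BMSCs, 11.67 and 11.71 in the Osx+ cells, and 4.14 and 4.07 in the CD45+ cells. Both Osx+ arrays were above every other array, the next being BM-SSC array 1 at 9.70, and NG2 is also known from cartilage and oligodendrocyte precursor cells. Mcam, the adhesion molecule CD146, read 5.47 and 6.61 in the P-SSCs, 6.13 and 6.20 in the BM-SSCs, 5.22 in the Nes+ BMSCs, 5.64 and 5.48 in the CD51+ BMSCs, 5.44 and 5.64 in the Osx+ cells, and 4.69 and 4.86 in the CD45+ cells. All stromal arrays were above both CD45+ arrays for Mcam, within a narrow range.

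**Figure D1:**
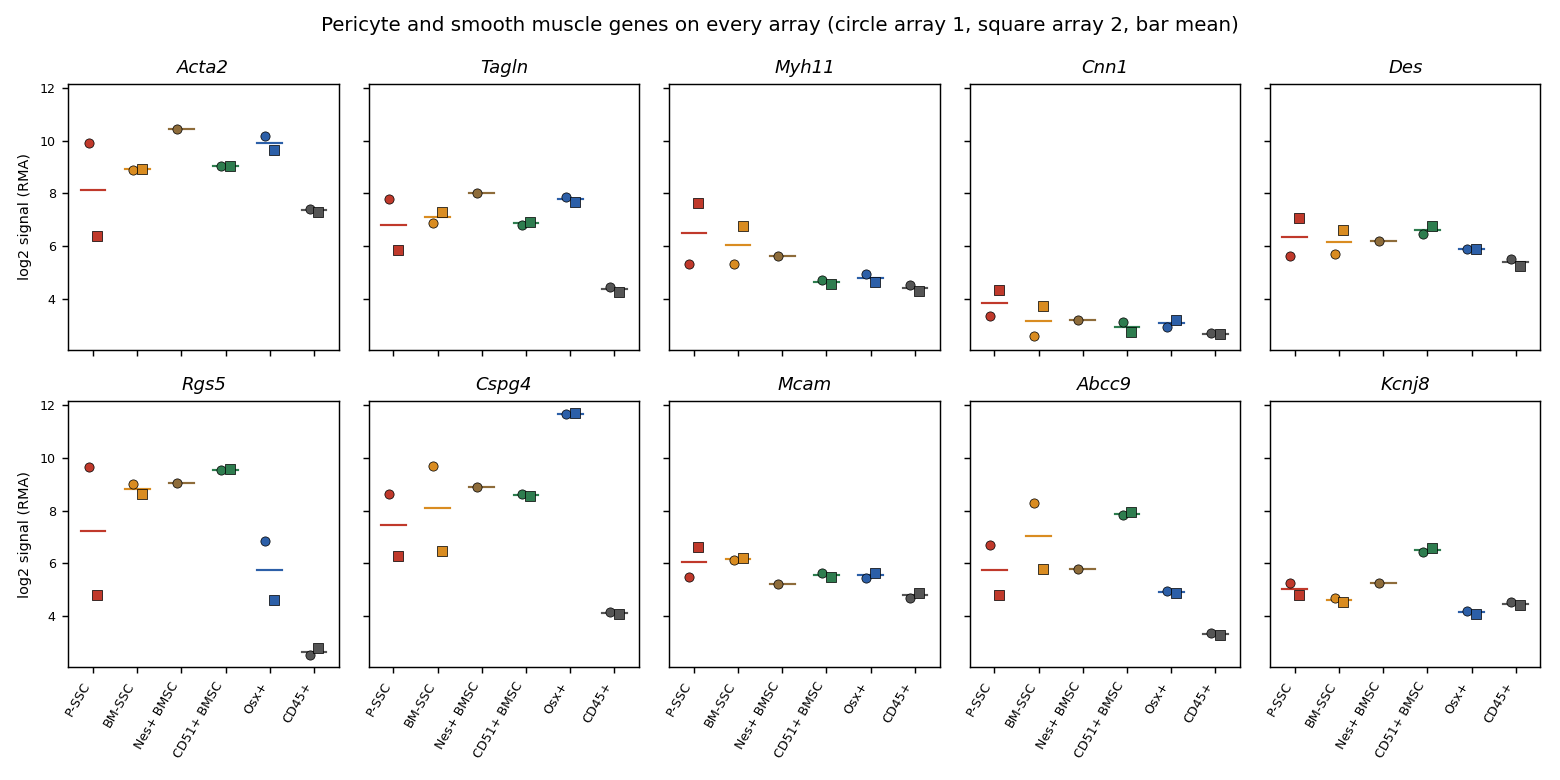
The vertical axes give the log2 signal of each of the 10 genes and the horizontal axes the population; a circle is array 1, a square array 2 and a bar the mean. Cspg4 is highest on the 2 Osx+ arrays (11.67 and 11.71), Kcnj8 on the 2 CD51+ arrays (6.44 and 6.60), and P-SSC array 2 departs from array 1 downward for Acta2, Tagln, Rgs5, Cspg4, Abcc9 and Kcnj8 and upward for Myh11, Cnn1, Des and Mcam.

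The first comparison asks how the stromal populations differ from the CD45+ blood cells, the non-skeletal control. Tagln passed in all 4 comparisons and was higher in each stromal population, Rgs5 and Abcc9 were higher in BM-SSCs and CD51+ BMSCs, Kcnj8 in CD51+ BMSCs and Cspg4 in Osx+ cells. No member was lower. A gene passed at a Benjamini-Hochberg adjusted p under 0.05 by limma's moderated test over all 45037 probe sets. In P-SSCs 1 of 10 members passed, where 2.48% of all probe sets were higher, and for BM-SSCs 3 of 10 did, where 2.18% were. In CD51+ BMSCs 4 of 10 passed beside 2.95% of all probe sets, and in Osx+ cells 2 of 10 beside 3.65%. Among the 18193 genes read by their brightest probe set, as the members were, 3.09%, 2.94%, 4.25% and 4.91% were higher in the same order. The median difference over the 10 members was 1.67 in P-SSCs, 1.59 in BM-SSCs, 1.87 in CD51+ BMSCs and 1.18 in Osx+ cells, beside medians over all 18193 genes of 0.19, 0.08, -0.07 and 0.02. The 4 comparisons share the same CD45+ arrays, so they are not independent of each other.

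Tagln averaged 4.35 ± 0.117 in CD45+ cells (SD, n = 2, as for each population named in what follows except the Nes+ BMSCs). It averaged 6.81 ± 1.36 in P-SSCs, a difference of 2.46 (standard error 0.578, adjusted p = 0.0389). Its mean of 7.09 ± 0.286 in BM-SSCs gave a difference of 2.74 (adjusted p = 0.0291). In CD51+ BMSCs the difference was 2.51 (adjusted p = 0.0483), and in Osx+ cells, at 7.77 ± 0.142, it was 3.42 (adjusted p = 0.00992), or 10.7-fold. Acta2 differed from CD45+ cells by 0.78 in P-SSCs, 1.55 in BM-SSCs, 1.68 in CD51+ BMSCs and 2.54 in Osx+ cells, each with a standard error of 0.959 and none past the threshold (adjusted p = 0.184 to 0.545). Myh11, Cnn1 and Des had higher means in all 4 stromal populations and passed in none, with differences of 0.22 to 2.08, 0.25 to 1.18 and 0.51 to 1.23.

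Rgs5 averaged 2.64 ± 0.185 in CD45+ cells, 8.82 ± 0.286 in BM-SSCs and 9.56 ± 0.0231 in CD51+ BMSCs. It was higher by 6.18 in BM-SSCs (standard error 1.40, adjusted p = 0.0371) and by 6.92 in CD51+ BMSCs (adjusted p = 0.0305). No fold is given, since the CD45+ signals stood at the 9.58th and 16.5th percentile of probe sets and were not shown to be above background. The mean over all Rgs5 probe sets differed by 3.79 and 4.42. In P-SSCs it averaged 7.22 ± 3.42, a difference of 4.59 that did not pass (adjusted p = 0.0779), and in Osx+ cells the difference was 3.10 (adjusted p = 0.293). Abcc9 was higher by 3.75 in BM-SSCs (standard error 0.854, adjusted p = 0.038) and by 4.59 in CD51+ BMSCs (adjusted p = 0.0228), and differed by 2.43 in P-SSCs and 1.60 in Osx+ cells without passing. By the mean over all Abcc9 probe sets the 2 called differences were 2.23 and 2.49. The channel partner Kcnj8 was higher by 2.06 in CD51+ BMSCs (standard error 0.31, adjusted p = 0.0115), or 4.17-fold. Its differences for P-SSCs (0.57), BM-SSCs (0.15) and Osx+ cells (-0.33) did not pass, so that BM-SSCs passed for one subunit of the channel and not for the other; the difference between the subunits was not tested.

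The Cspg4 signals of CD45+ cells stood at the 45.1th and 44.1th percentile of probe sets. Neither they nor the lower signals behind the folds of Tagln and Kcnj8 were shown to be above background. In the mean over its 2 probe sets Cspg4 was higher in Osx+ cells by 6.47. By its brightest probe set it was higher by 7.59 (11.69 ± 0.0284 against 4.10 ± 0.0525, standard error 1.06, adjusted p = 0.00433), or 192-fold. This call held under every alternative run, leaving out each array in turn included. For P-SSCs, BM-SSCs and CD51+ BMSCs Cspg4 differed by 3.34, 3.98 and 4.48 without passing (adjusted p = 0.0855, 0.0617 and 0.0529), although no array of these populations overlapped the CD45+ arrays. Mcam differed by 0.76 to 1.38 in the 4 comparisons and passed in none.

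**Figure D2:**
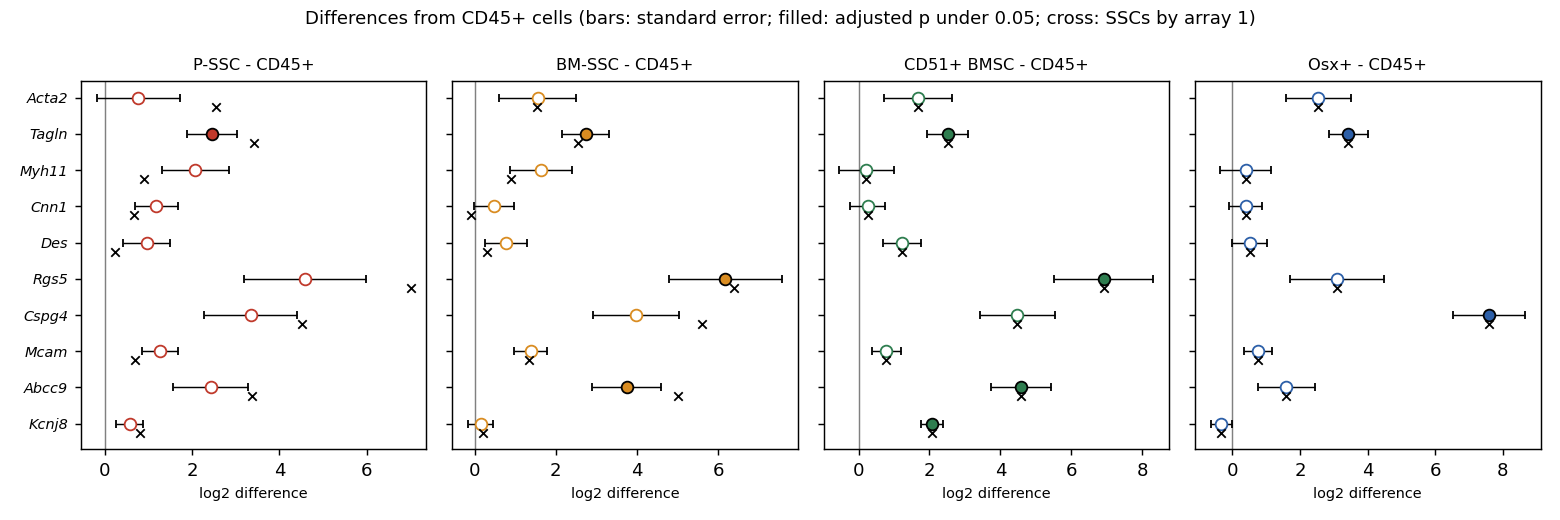
Log2 differences from CD45+ cells are on the horizontal axes for the 10 genes on the vertical axis, in 1 panel per stromal population; circles are estimates over all arrays with standard errors as bars, filled where the adjusted p was under 0.05, and crosses are estimates without array 2 of both SSC populations. Filled circles are few (1, 3, 4 and 2 genes from left to right), and the crosses of the P-SSCs lie to the right of the circles for Acta2, Tagln, Rgs5, Cspg4, Abcc9 and Kcnj8 and to the left for the other 4 genes.

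Without array 2 of both SSC populations many more probe sets passed, and with them most members. The members higher than in CD45+ cells then numbered 9 in P-SSCs, 7 in BM-SSCs, 8 in CD51+ BMSCs and 7 in Osx+ cells, where 22.6%, 15.3%, 14.7% and 18% of all probe sets were higher and 48.6%, 37.4%, 36.4% and 41.4% passed in either direction. The P-SSC difference of Rgs5 was then 7.01 (adjusted p = 0.000182), of Acta2 2.55 (adjusted p = 8.58e-05), of Cspg4 4.51 (adjusted p = 1.05e-06) and of Abcc9 3.38 (adjusted p = 4.35e-06). Des was the only member that did not pass in P-SSCs (0.24, adjusted p = 0.36). With all arrays its difference was 0.96, and that of Myh11 was 2.08 against 0.91 without these arrays. In the opposite direction, without P-SSC array 1 the Acta2 difference turned to -1.0. By rank within the array, Acta2 nonetheless stood higher on P-SSC array 2 than on either CD45+ array.

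Other calls also changed when 1 array was left out, even in comparisons without that array, and some did so though the difference itself moved little. Over these fits the difference of CD51+ BMSCs from CD45+ cells stayed at 6.79 to 7.05 for Rgs5 and at 1.98 to 2.14 for Kcnj8. Leaving out either CD45+ array, either CD51+ array or either Osx+ array left 2 of the 11 member calls in each case. Leaving out either BM-SSC array ended 3 of the 11, among them Rgs5 in BM-SSCs (adjusted p = 0.067 without array 1 and 0.112 without array 2), and array weights, which give the SSC arrays little weight, ended that of Tagln in P-SSCs (adjusted p = 0.0958). Leaving out BM-SSC array 1 lowered the Abcc9 difference of the BM-SSCs to 2.50 (adjusted p = 0.056), while the other differences of called members moved by less than 1.5 times, apart from those of the P-SSCs. Tagln in P-SSCs stood at 1.5 without P-SSC array 1 and at 3.42 without P-SSC array 2.

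The second comparison sets the stem cell populations against the Osx+ osteoprogenitors. With all arrays 1 member passed, Kcnj8, which was higher in CD51+ BMSCs by 2.39 (6.52 ± 0.111 against 4.13 ± 0.0594; standard error 0.31, adjusted p = 0.0091), or 5.25-fold, where 1.51% of all probe sets were higher. No member passed limma's test between P-SSCs and Osx+ cells (0.808% of all probe sets) or between BM-SSCs and Osx+ cells (0.615%). In each, 2 members had an unadjusted p under 0.05, beside 8147 and 4162 of all 45037 probe sets. The Cspg4 differences were -4.25, -3.61 and -3.11 in P-SSCs, BM-SSCs and CD51+ BMSCs (adjusted p of 0.154, 0.308 and 0.318), with no overlap between arrays in any of them. For BM-SSCs Rgs5 differed by 3.08 and Abcc9 by 2.15, and for CD51+ BMSCs by 3.82 and 2.99, none past the threshold.

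Without array 2 of both SSC populations, P-SSCs had 4 members that passed against Osx+ cells, BM-SSCs had 5 and CD51+ BMSCs 7, where 26.1%, 14.6% and 24.7% of all probe sets did. Cspg4 was then lower in all 3, by -3.07, -1.99 and -3.11, and Rgs5 (3.91, 3.28 and 3.82) and Abcc9 (1.78, 3.41 and 2.99) were higher in all 3. Kcnj8 was higher in P-SSCs by 1.14 (adjusted p = 0.00288) and in CD51+ BMSCs. Acta2 and Tagln were lower in BM-SSCs (-1.0 and -0.88) and in CD51+ BMSCs (-0.87 and -0.91), and in P-SSCs, read by array 1, they differed from Osx+ cells by 0.0067 and -0.0016. Of Myh11, Cnn1, Des and Mcam, Des passed once, in CD51+ BMSCs (0.72, adjusted p = 0.0152).

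The stem cell populations were also compared among themselves. No member passed limma's test with all arrays between P-SSCs and CD51+ BMSCs (0.595% of all probe sets) or between BM-SSCs and CD51+ BMSCs (0.617%). At an unadjusted p under 0.05 there were 3 members beside 10146 of all 45037 probe sets, and 1 member beside 5166. The nearest to passing was Kcnj8, at -1.91 for BM-SSCs (adjusted p = 0.0518) and -1.49 for P-SSCs (adjusted p = 0.11). Between P-SSCs and BM-SSCs no member and 0% of all probe sets passed (0 members at an unadjusted p under 0.05, beside 931 probe sets), and likewise between BM-SSCs and the single Nes+ array (0% of all probe sets; 0 members at an unadjusted p under 0.05, beside 376 probe sets). The largest member difference between P-SSCs and BM-SSCs was that of Rgs5, -1.60, with a standard error of 1.40, and the errors of 0.31 to 1.40 over the members leave room for differences of several fold in either direction. By the F-test for any difference among the 6 populations, Cspg4 (adjusted p = 0.045) and Kcnj8 (adjusted p = 0.0245) passed, where 6.36% of all probe sets did, and Tagln came next (adjusted p = 0.0577) without passing.

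With both second SSC arrays left out, against CD51+ BMSCs 6 members passed in P-SSCs and 3 in BM-SSCs. The P-SSC and BM-SSC arrays then differed for 2 members, and BM-SSCs and Nes+ BMSCs for 5. In these 4 comparisons 29.6%, 14.2%, 2.06% and 27.9% of all probe sets passed. Abcc9 and Cspg4 were then lower in P-SSCs than in BM-SSCs, by -1.63 (adjusted p = 0.0103) and -1.08 (adjusted p = 0.0363), in a comparison of 1 array with 1 array. Kcnj8 was lower than in CD51+ BMSCs in both P-SSCs (-1.25) and BM-SSCs (-1.84). Against Nes+ BMSCs, BM-SSC array 1 was lower for Acta2 (-1.53) and Tagln (-1.11) and higher for Abcc9 (2.52), Mcam (0.91) and Cspg4 (0.80).

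A second reading of the larger differences came from other probe sets of the same genes. The 10 members had 20 probe sets, 6 members with more than 1. The other Cspg4 probe set was higher in Osx+ than in CD45+ cells by 5.36 (adjusted p = 0.00116), also in P-SSCs (2.76) and BM-SSCs (2.27; adjusted p of 0.0235 and 0.0465), and it was lower in CD51+ BMSCs than in Osx+ cells by -3.04 (adjusted p = 0.0354). Of the other 3 Rgs5 probe sets, one exceeded CD45+ cells in P-SSCs by 1.94, in BM-SSCs by 2.12 and in CD51+ BMSCs by 2.90 (adjusted p of 0.0227, 0.0173 and 0.00774), and another by 4.35 and 4.79 in BM-SSCs and CD51+ BMSCs (0.0443 and 0.0397). The first of these was also higher in CD51+ BMSCs than in Osx+ cells, by 2.50 (adjusted p = 0.0177). One more Abcc9 probe set exceeded CD45+ cells by 1.82 in BM-SSCs and 1.72 in CD51+ BMSCs (adjusted p of 0.0337 and 0.0492). The remaining Rgs5 and Abcc9 probe sets passed in no comparison. From CD45+ cells they differed by 2.78 and 1.25 in P-SSCs, 2.49 and 1.12 in BM-SSCs, and 3.06 and 1.17 in CD51+ BMSCs. In P-SSCs the difference of 1.94 was the only Rgs5 one that passed. The Rgs5 probe set behind the differences of 1.94, 2.12, 2.90 and 2.50 carries the maker's x suffix, for probes that may also bind unrelated transcripts. The main probe sets of Acta2 and Abcc9 carry the s suffix by which the maker marks probes shared by several transcripts, so related transcripts may add to their signal, and the other 2 Acta2 probe sets stayed between 2.53 and 4.93 on all arrays.

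**Figure D3:**
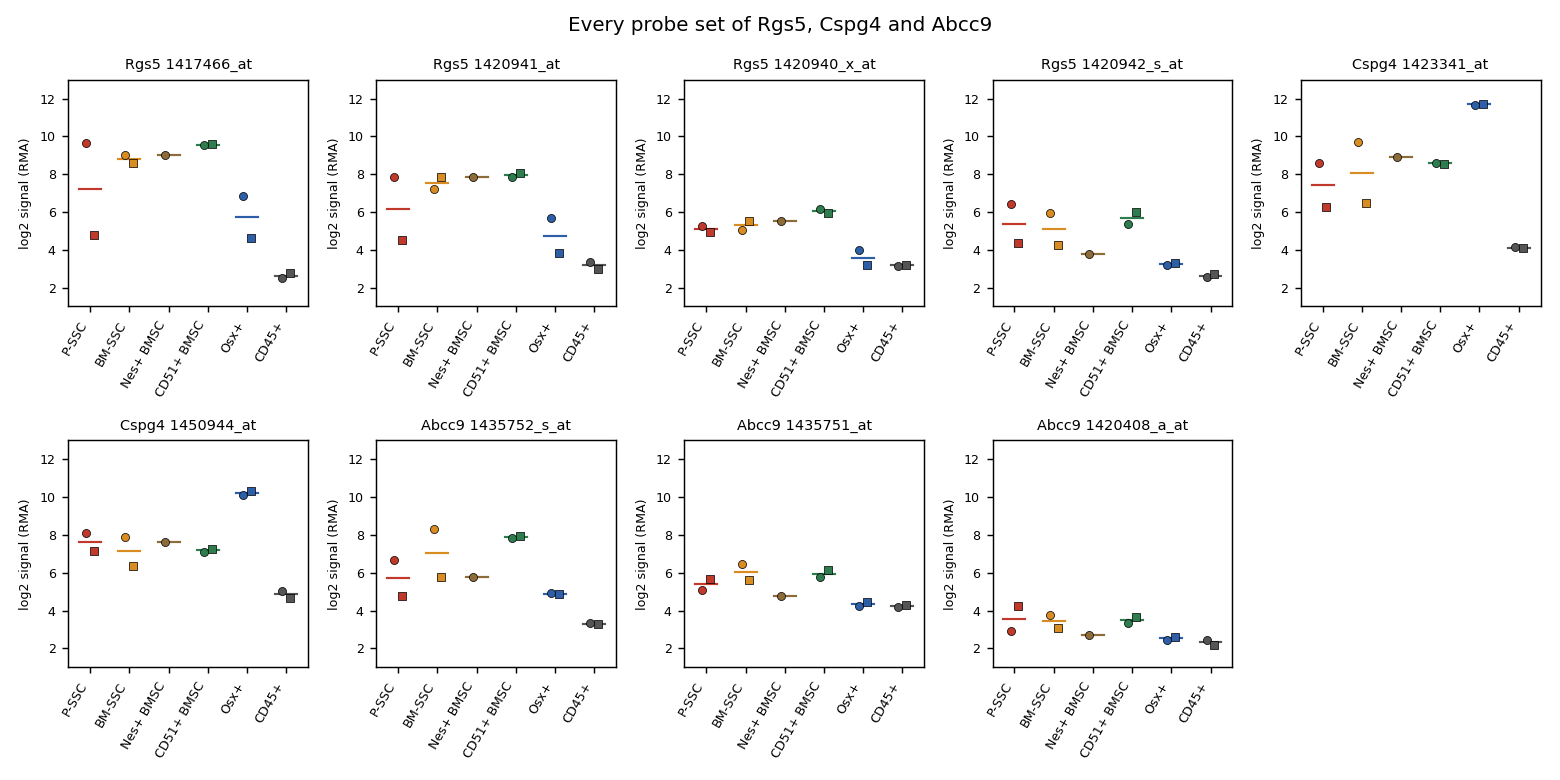
The vertical axes give the log2 signal of every probe set of Rgs5 (4), Cspg4 (2) and Abcc9 (3) and the horizontal axes the population; a circle is array 1, a square array 2 and a bar the mean. Both Cspg4 probe sets are highest on the Osx+ arrays, and each Rgs5 probe set has a lower mean in CD45+ cells than in any other population.

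How the members moved with each other was described by correlation over the 11 arrays, which share populations and, for P-SSC array 2, quality. Acta2 and Tagln correlated at 0.865, and at 0.981 over the 9 arrays without array 2 of both SSC populations. Rgs5 and Abcc9 correlated at 0.896 (0.909 over 9 arrays), Abcc9 and Kcnj8 at 0.686 (0.695) and Rgs5 and Kcnj8 at 0.626 (0.682). Acta2 and Myh11 correlated at -0.278 over 11 arrays and at 0.724 over 9, so that the sign rested on the second SSC arrays. Among 7022 genes whose population means spanned at least 2 log2 units, those most like Acta2 were Rrad (0.955), Fscn1 (0.951), Gadd45b (0.949), Ttc28 (0.931) and Fkbp9 (0.93), and those most like Rgs5 were Apod (0.976), Serping1 (0.973), Gas1 (0.968), Sparcl1 (0.962) and Nr2f2 (0.96). This order rested on the second SSC arrays: over 9 arrays the genes named for Acta2 ranked 8, 34, 36, 56 and 118 and those for Rgs5 7, 16, 11, 23 and 46, so that none stayed among the first 5.

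Of 19 further contractile genes, 2 were higher than in CD45+ cells in each of the 4 stromal populations and none was lower, beside the 3.09%, 2.94%, 4.25% and 4.91% of all genes that were higher in P-SSCs, BM-SSCs, CD51+ BMSCs and Osx+ cells. Cald1, caldesmon, which binds actin and myosin, was higher in all 4, by 5.75 in P-SSCs, 7.61 in BM-SSCs, 7.92 in CD51+ BMSCs and 7.60 in Osx+ cells (adjusted p from 0.0127 to 0.04). The second gene was Synm, the intermediate filament protein synemin, in P-SSCs (5.19) and BM-SSCs (5.79), Synpo2 in CD51+ BMSCs (2.38) and the tropomyosin Tpm2 in Osx+ cells (4.72). The medians over the list were 0.97, 0.77, 1.11 and 0.90, and with all arrays none of the 19 passed in any comparison without CD45+ cells. Without array 2 of both SSC populations, 7 were higher and 1 lower in P-SSCs than in Osx+ cells, 6 and 3 in CD51+ BMSCs than in Osx+ cells, and 5 and 3 in P-SSCs than in CD51+ BMSCs. Among the 18 of them with a promoter window, a full CArG box was found in Myl9 (1.63% of all windows). The looser form was in 3, Myl9, Pdlim3 and Synm (9.98%). MCAT elements were in 8 of the 18 (14.7%), E-boxes in 15 (72.3%) and TATAAA in 3 (13.6%).

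Of 20 regulators of mural and smooth muscle genes, Notch3, the receptor known from arterial smooth muscle and pericytes, was higher in P-SSCs by 1.84, in BM-SSCs by 2.06 and in CD51+ BMSCs by 2.36 (adjusted p of 0.0302, 0.022 and 0.0168). The Notch target Hey1 was higher in BM-SSCs by 2.55, the homeobox genes Meox2 and Meox1 in CD51+ BMSCs by 6.58 and 2.15, and the forkhead genes Foxc1 and Foxc2 in Osx+ cells by 6.26 and 5.38. Mrtfa, a myocardin-related cofactor of serum response factor that is widely expressed, was lower in all 4, by -2.13 to -2.50. In all, 1, 2, 3 and 2 regulators were higher, beside the same shares of all genes, with medians of 1.01, 1.01, 1.49 and 1.49. Mrtfa was the 1 of 20 that was lower in each, where 9.39%, 8.02%, 3.66% and 7.05% of all genes and 7.29%, 6.26%, 2.9% and 5.62% of all probe sets were lower, so that this count is near the background. With all arrays none of the regulators passed in the comparisons without CD45+ cells. With the second SSC arrays left out, 6 were higher and 2 lower in P-SSCs than in Osx+ cells, 6 and 6 in CD51+ BMSCs than in Osx+ cells, and 6 and 3 in P-SSCs than in CD51+ BMSCs.

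Of 19 other pericyte genes measured, 5 were higher than in CD45+ cells in P-SSCs, 3 in BM-SSCs, 6 in CD51+ BMSCs and 2 in Osx+ cells, beside 3.09%, 2.94%, 4.25% and 4.91% of all genes. The medians were 1.44, 1.46, 2.00 and 0.82, and none was lower. In P-SSCs these included Agtr1a, the angiotensin receptor of mural cells (2.72, adjusted p = 0.00985), and Rgs4, a relative of Rgs5 (2.54, adjusted p = 0.00786). Rgs4 was also higher in BM-SSCs (2.60, adjusted p = 0.00709), as were the endothelin receptor Ednrb (2.23) and Ndufa4l2 (1.66). In CD51+ BMSCs the matrix protein vitronectin, Vtn, was higher by 4.98 (adjusted p = 0.00354), Cygb, the stellate cell globin, by 4.75 and Agtr1a by 4.08, and in Osx+ cells Ndufa4l2 by 3.19 and Rgs4 by 1.55.

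In this list CD51+ BMSCs also differed from Osx+ cells and from BM-SSCs, while 0 of the 19 passed limma's test against P-SSCs with all arrays. Vtn (4.60, adjusted p = 0.00539), Agtr1a (3.26) and Anpep, the surface peptidase CD13 (3.13), were higher there than in Osx+ cells, as was 1 more of the 19, and 1 was lower, where 2.21% of all genes were higher and 0.984% lower. Vtn and Agtr1a were lower in BM-SSCs than in CD51+ BMSCs, by -3.52 (adjusted p = 0.0362) and -3.44 (adjusted p = 0.0224), beside 0.803% of all genes. Ednrb was higher in BM-SSCs than in Osx+ cells by 2.55 (adjusted p = 0.0294), where 0.044% of all genes were. With all arrays the paralogs of the potassium channel subunits, Kcnj11 and Abcc8, passed in no comparison. In the fit without the second SSC arrays 1 of these 2 was higher in P-SSCs than in CD45+, Osx+ and CD51+ cells, and both were lower in BM-SSCs than in Nes+ BMSCs. In that setting 4 of the 19 pericyte genes were higher and 5 lower in P-SSCs than in CD51+ BMSCs.

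Without array 2 of both SSC populations the counts against CD45+ cells were 12, 12, 14 and 13 higher and 1, 1, 1 and 2 lower of the 19 contractile genes, 13, 11, 14 and 14 higher and 3, 1, 2 and 2 lower of the 20 regulators, and 16, 13, 15 and 10 higher and none lower of the 19 pericyte genes. In that setting 24.4%, 18%, 19.1% and 22% of all genes were higher and 30.9%, 26.2%, 24.2% and 26.9% lower than in CD45+ cells. For P-SSCs and CD51+ BMSCs against Osx+ cells the shares were 13.1% and 17.2% higher and 17.7% and 12.9% lower, and for P-SSCs against CD51+ BMSCs 12.3% higher and 20.5% lower.

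Markers of other cell types moved with the populations. The mean of 15 skeletal muscle genes was 6.52 and 7.15 on the CD51+ arrays and 3.76 to 5.10 on all others, and 10 of the 15 were higher in CD51+ BMSCs than in CD45+ cells (4.25% of all genes), among them Acta1, skeletal muscle actin (5.50, adjusted p = 0.00547). Des is a gene of skeletal as well as smooth muscle. The mean of 10 blood cell genes was 9.87 and 10.01 on the CD51+ arrays, 11.84 and 11.90 on the CD45+ arrays and at most 7.28 elsewhere, although the CD51+ cells were sorted as CD45-. The mean of 13 endothelial genes was 6.54 on P-SSC array 1, 5.0 on P-SSC array 2, 5.44 and 5.81 in BM-SSCs, 4.80 and 5.12 in CD51+ BMSCs, 4.78 in Nes+ BMSCs, 3.89 and 4.17 in Osx+ cells and 4.34 and 4.38 in CD45+ cells, and 6 of the 13 were higher in P-SSCs than in CD45+ cells (3.09% of all genes), among them the vascular growth factor receptor Flt1 and the junction protein Cldn5. The part of these cells in the values of the 10 members was not tested.

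**Figure D4:**
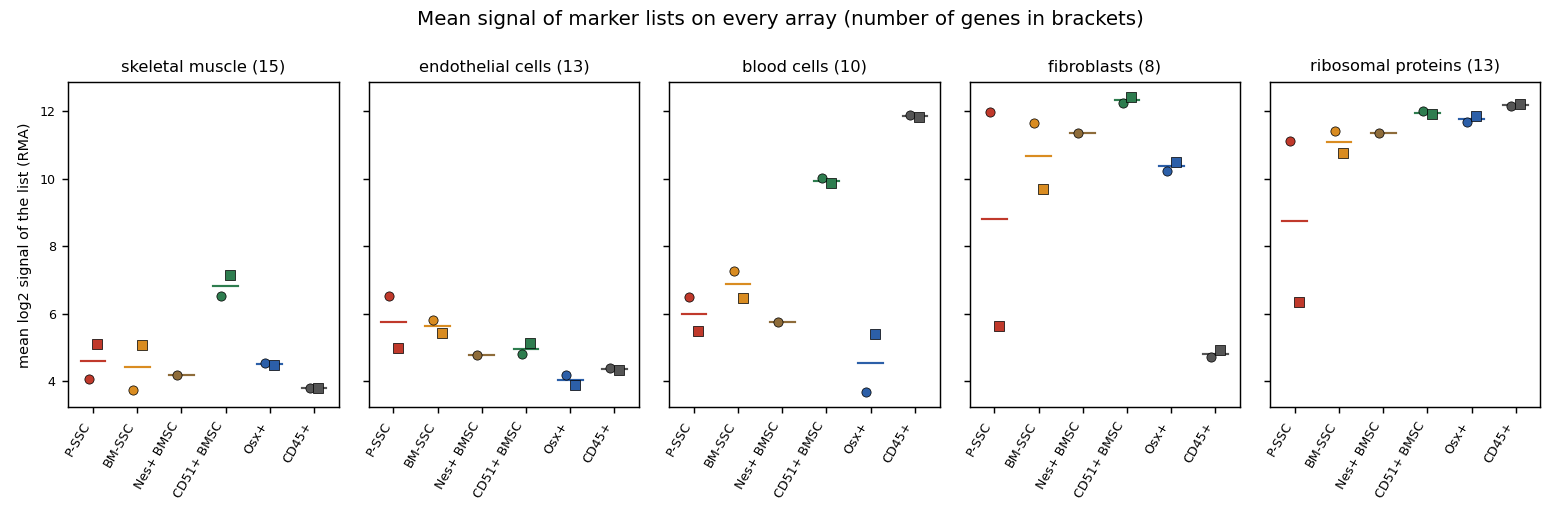
The vertical axis gives the mean log2 signal over the genes of 5 marker lists and the horizontal axes the population; a circle is array 1, a square array 2 and a bar the mean. Skeletal muscle genes are highest on the CD51+ arrays (6.52 and 7.15), blood cell genes are at 9.87 and 10.01 there, and ribosomal protein genes are at 6.34 on P-SSC array 2 against 10.75 or more on all others.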

How the data were processed

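RNA of 6 sorted mouse populations was measured on 11 Affymetrix mouse arrays. The authors processed the scans with RMA in Partek GS and R and deposited log2 values. RMA corrects background, normalizes across arrays and summarises the probes of a probe set; quantile steps of this kind can move arrays of poor quality. Per the submitters' notes limma was also used, with no version given.

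The deposited log2 values were used unchanged. Of the probe sets, 64 controls were left out and 45037 tested. Symbols came from the platform annotation, where 34945 tested probe sets carry 1 symbol, and each gene was read by its brightest such probe set. limma 3.58.1 in R 4.3.3 fitted a mean per population over all arrays (5 residual and 2.65 prior degrees of freedom), with 11 comparisons and an F-test, each adjusted by Benjamini-Hochberg at 0.05. No filter on signal was applied, and the number of arrays limits the precision. The test was first run on simulated data with the same spread on every array. The second SSC arrays do not meet that setting, so the run does not cover their effect. Tables and plots were made in Python.

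All 10 members are described. From each further list up to 3 genes per comparison were named, those with the largest differences among genes that passed without overlap between arrays; the Mrtfa value in CD51+ BMSCs lies outside this rule and was named after it was seen. Likeness used the 5 highest Pearson correlations. The members and lists were chosen with earlier results of these data known. Alternatives were fitting just the populations compared, p-values without adjustment, dropping dim probe sets, quantile normalization, median centring, robust estimation with a variance trend, a block for the replicate number, testing 1 probe set of each gene, the mean over a gene's probe sets, array weights, leaving out array 2 of both SSC populations, and leaving out each array.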

Additional observations from a re-analysis of the deposited data

How the results depend on the processing

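The direction of the 11 member calls was the same under every alternative, but the calls themselves were not stable: only Cspg4 in Osx+ against CD45+ cells passed throughout. Counts of members that passed are given in the order P-SSCs, BM-SSCs, CD51+ BMSCs and Osx+ cells against CD45+ cells where 4 are listed. At an unadjusted p under 0.05 they were 7, 5, 6 and 3, beside 15086, 11003, 7253 and 8567 of all 45037 probe sets. They were 2, 2 and 4 for P-SSCs, BM-SSCs and CD51+ BMSCs against Osx+ cells, beside 8147, 4162 and 4040 probe sets. For P-SSCs and BM-SSCs against CD51+ BMSCs they were 3 and 1, beside 10146 and 5166, and in the F-test 5, beside 9754. In a fit of only the groups compared they were 0, 1, 8 and 6, with 7 for CD51+ BMSCs against Osx+ cells. Quantile normalization gave 1, 2, 1 and 2, 0 for CD51+ BMSCs against Osx+ cells and 1 in the F-test. Median centring gave 0, 0, 3 and 2 and 1 in the F-test. A trend in the variance gave 1 for BM-SSCs against CD51+ BMSCs and 1 in the F-test. The mean over all probe sets of a gene gave 5 in P-SSCs against CD45+ cells, 1 for BM-SSCs against CD51+ BMSCs and 5 in the F-test. Array weights gave 0, 4, 8 and 7, 7 for CD51+ BMSCs against Osx+ cells and 9 in the F-test. Without array 2 of both SSC populations they were 9, 7, 8 and 7, with 4, 5 and 7 against Osx+ cells, 6 and 3 against CD51+ BMSCs, 2 for P-SSCs against BM-SSCs, 5 between BM-SSCs and Nes+ BMSCs and 9 in the F-test. Leaving out 1 array gave 0 to 6, 0 to 6, 0 to 6 and 1 to 4 against CD45+ cells, 0 to 5, 0 to 1 and 0 to 2 against Osx+ cells, 0 to 8 and 0 to 1 against CD51+ BMSCs, 0 to 3 for P-SSCs against BM-SSCs, 0 to 0 between BM-SSCs and Nes+ BMSCs and 0 to 8 in the F-test; where a population kept 1 array, it was assumed to vary like the others. For the fit of only the groups compared, the normalizations, the variance trend and the probe set mean, the share of all probe sets passing is not given. The same holds for array weights and for leaving out 1 array. Counts under these settings therefore cannot be set against a background. The cause of these shifts was not tested.

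Differences that changed sign and passed after the change were those of P-SSCs against CD51+ BMSCs for Acta2 (0.87) and Tagln (0.91), and of Cspg4 in BM-SSCs against CD51+ BMSCs (1.12) and Nes+ BMSCs (0.80), all without array 2 of both SSC populations, and of Acta2 in P-SSCs against CD45+ cells, which ranged from -1.0 to 2.55 when 1 array was left out.

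With the replicate number as a block, 1, 4, 4 and 2 members passed against CD45+ cells; Tagln in CD51+ BMSCs lost its call. The numbers did not pair the arrays across all populations: of 10 pairs of populations 1 had deviations correlated above 0.1. That pair was P-SSCs with BM-SSCs (0.784), so array 2 of these populations departed from array 1 in a largely shared way. What the 2 second arrays have in common was not tested.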

Other observations

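Genes of fibroblasts and glia were read on the same arrays. Of 8 fibroblast genes, 3 were higher than in CD45+ cells in BM-SSCs, 3 in CD51+ BMSCs and 4 in Osx+ cells, beside 2.94%, 4.25% and 4.91% of all genes, and 0 passed limma's test in P-SSCs with all arrays, where the mean of the list was 11.99 on array 1 and 5.63 on array 2; without array 2 of both SSC populations 7 of the 8 were higher there, beside 24.4% of all genes. Among them Col3a1, a fibrillar collagen, was higher by 10.92 in BM-SSCs, 11.11 in CD51+ BMSCs and 11.16 in Osx+ cells. Of 6 measured genes of glia and Schwann cells, S100b, a calcium-binding protein of glia that cartilage also makes, was the 1 that passed with all arrays. It was higher in all 4 stromal populations, by 3.08 in P-SSCs, 3.49 in BM-SSCs, 2.80 in CD51+ BMSCs and 4.43 in Osx+ cells. This is 1 of 6 in each, beside 3.09%, 2.94%, 4.25% and 4.91% of all genes that were higher.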
